A study of Sus scrofa with 25 samples.

Results

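Nuclear receptors such as the vitamin D receptor change transcription through coregulators, proteins that bind the receptor and bring in the enzymes that act on chromatin and RNA polymerase. Coactivators dock on a receptor that carries its hormone, while corepressors hold genes down on receptors that carry none or, in some cases, limit the hormone-bound receptor. In mouse muscle, corepressors of this kind restrain the genes of oxidative metabolism. The genes described here are 7 coregulators: the p160 coactivators NCOA1, NCOA2 and NCOA3, the Mediator subunit MED1 through which Mediator meets many receptors, the chromatin remodeller SMARCA4 (the ATPase of SWI/SNF complexes, also called BRG1), and the corepressors NCOR1 and NRIP1 (also called RIP140). They were selected by their symbols in an Ensembl table of pig gene names, and each symbol matched 1 of the 25879 pig genes analysed. All 7 passed the filter on low counts, which left 10992 genes.

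Muscle RNA of 25 pigs, 1 library each, was counted after feeding from day 85 of life for 90 days. The control group (8 pigs) is entered here at 0 IU of vitamin D3 per kg of feed, although its sample titles say only control and state no dose. The D5000 group (8 pigs) had 5000 IU/kg and the D10000 group (9 pigs) had 10000 IU/kg, with littermates spread over the diets. All came from Polish Large White sows and Landrace boars. The labels name neither the muscle nor the sex or litter of an animal. Replicates are named by the animal numbers of the labels.

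QuantSeq FWD chemistry (Lexogen) gives 1 tag near the poly(A) tail of a transcript, and the levels below, counts scaled to 1000000 gene counts of a library (CPM), therefore do not grow with transcript length. A library held 3310507 to 15177976 gene counts, and 24.9% to 70.6% of its reads were assigned to genes. Under 40% were assigned in D5000 replicate 18 (24.9%), D10000 replicate 2 (28.4%) and D10000 replicate 7 (38.2%), and in 0 control libraries. Fast-twitch markers (7 of 8 symbols found) summed to 10554 to 40604 CPM in control, 9293 to 37272 in D5000 and 1494 to 29418 in D10000, and slow-twitch markers (7 of 8) to 1147 to 10472, 1892 to 18437 and 636 to 7264 CPM. Liver markers (10 of 10) summed to 3390 to 22509 CPM in control, 3606 to 31060 in D5000 and 3140 to 35586 in D10000. Adipocyte markers (10 of 10) summed to 320 to 618 CPM in control, 333 to 917 in D5000 and 301 to 30020 in D10000. The D10000 median was 588 CPM, and the 30020 CPM were in D10000 replicate 27. That library also had the highest sums of fibroblast markers (8 of 8, 7241 CPM, against 650 to 2211 in control and D5000 libraries) and of endothelial markers (5 of 7, 517 CPM, against 56.3 to 187). Immune markers (8 of 8, with CD79A at 0 throughout) ran from 63.2 to 447 CPM, erythroid markers (5 of 6) from 206 to 2312 and lung markers (6 of 7) from 0 to 150 CPM.

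The 7 coregulators spanned a wide range of levels. MED1 was the most abundant, at 139 ± 63.1 CPM (SD, n = 25), and it was above NCOR1, the next in order at 81.5 ± 45.5 CPM, in 24 of 25 libraries. NCOR1 and SMARCA4 (79.2 ± 40.9 CPM) were neighbours within their spread, since NCOR1 was the higher in 14 of 25 libraries. SMARCA4 lay above NCOA1 (34.6 ± 13.3 CPM) in 24 of 25 libraries, NCOA1 above NCOA2 (24.7 ± 24.7 CPM) in 21, and NCOA2 above NRIP1 (15.4 ± 15.0 CPM) in 22. NCOA3 was the lowest in all 25 libraries, at 3.27 ± 3.73 CPM, and rested on only 4 to 58 counts per library. The spread was unequal among them. The highest library exceeded the lowest by 4.24-fold for MED1, 6.75-fold for SMARCA4, 6.90-fold for NCOA1 and 7.62-fold for NCOR1, but by 15.6-fold for NCOA2, 26.4-fold for NRIP1 and 37.1-fold for NCOA3. Counting alone would give a coefficient of variation of 3.20% for MED1, 8.56% for NCOA2, 11.3% for NRIP1 and 27.0% for NCOA3, where 45.4%, 99.9%, 97.6% and 114% were observed. The biological coefficient of variation fitted by edgeR was 0.36 for MED1, 0.37 for SMARCA4, 0.394 for NCOA1 and 0.438 for NCOR1, below the median of 0.585 over the genes tested, 0.553 for NCOA2, and above that median for NRIP1 (0.605) and NCOA3 (0.78).

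**Figure D1:**
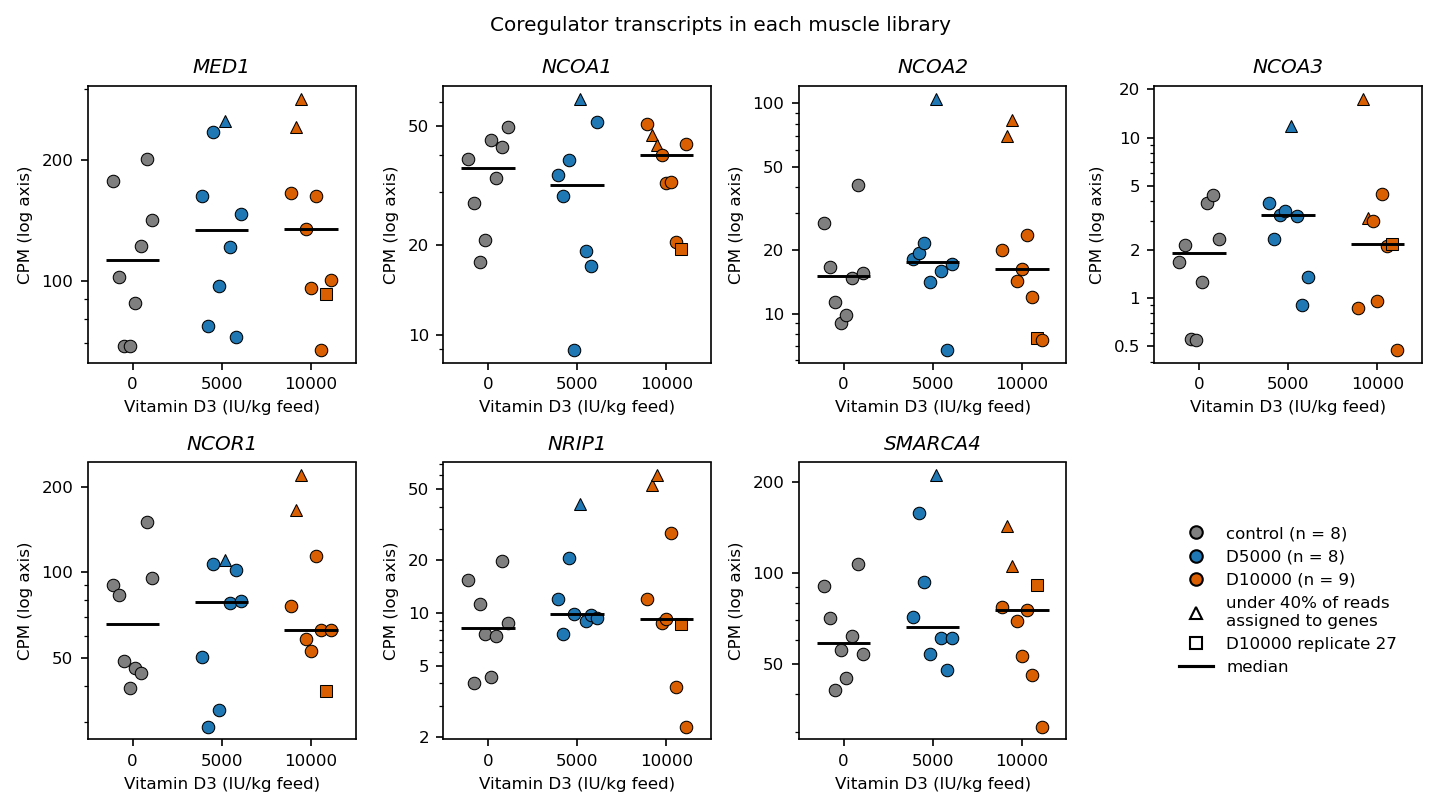
CPM of each coregulator (log axis) in each library by vitamin D3 in the feed, with a bar at the median of a diet, triangles for the 3 libraries with under 40% of reads assigned to genes and a square for D10000 replicate 27. The diets overlap in every panel, and the triangles lie at the top for MED1, NCOA2 and NRIP1.

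Among the p160 coactivators, which recruit histone acetyltransferases to hormone-bound receptors, NCOA1 (ENSSSCG00000008581) had similar means in the 3 diets. It had a lowest, median and highest level of 17.6, 36.2 and 49.8 CPM in control libraries, 8.93, 31.7 and 61.7 CPM in D5000 libraries and 19.4, 39.9 and 50.7 CPM in D10000 libraries. In CPM the extremes of the 25 libraries were both in D5000, replicate 15 at the low end and replicate 18 at the high end. Such ranks depend on the scaling. TMM, edgeR's correction for library composition, gave D5000 replicate 18 a factor of 1.545, D10000 replicate 2 1.412 and D10000 replicate 7 1.405. A factor above 1 lowers the scaled level. After TMM scaling NCOA1 was highest in D10000 replicate 30, at a log2 CPM of 5.76, against 5.33 in D5000 replicate 18. NCOA2 (ENSSSCG00000006194), also called TIF2 or GRIP1, ran 9.02, 15.1 and 40.9 CPM in control, 6.72, 17.7 and 105 CPM in D5000 and 7.49, 16.2 and 82.8 CPM in D10000. Its medians were close together, while 3 libraries stood far above the rest: D5000 replicate 18 at 105 CPM, D10000 replicate 7 at 82.8 CPM and D10000 replicate 2 at 69.8 CPM, against at most 40.9 CPM in the other libraries. NCOA3 (ENSSSCG00000007458), a p160 coactivator first known as amplified in breast cancer in humans, ran 0.547, 1.92 and 4.37 CPM in control, 0.901, 3.27 and 11.8 CPM in D5000 and 0.473, 2.18 and 17.5 CPM in D10000. Its 2 highest values were those of D10000 replicate 2 (58 counts) and D5000 replicate 18 (51 counts).

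MED1 (ENSSSCG00000017505), which links receptors to RNA polymerase II through Mediator, ran 68.5, 112 and 201 CPM in control, 72.2, 134 and 251 CPM in D5000 and 67.1, 134 and 285 CPM in D10000. The lowest values of the diets nearly coincide, and in CPM the highest 3 of the 25 libraries were again D10000 replicate 7, D5000 replicate 18 and D10000 replicate 2. After TMM scaling D5000 replicate 11, at a log2 CPM of 7.60, lay above D10000 replicate 2 (7.42) and D5000 replicate 18 (7.35). SMARCA4 (ENSSSCG00000013629), whose ATPase moves nucleosomes, ran 41.1, 59.0 and 107 CPM in control, 48.1, 66.5 and 211 CPM in D5000 and 31.2, 75.7 and 143 CPM in D10000. In CPM D5000 replicate 18 was the highest, and D5000 replicate 6 followed at 157 CPM although 52.0% of its reads were assigned to genes. After TMM scaling D5000 replicate 6 was the highest, at a log2 CPM of 7.47 against 7.10 in D5000 replicate 18.

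NCOR1 (ENSSSCG00000018039), the scaffold that holds the histone deacetylase HDAC3 on unliganded receptors, ran 39.4, 66.1 and 150 CPM in control, 28.8, 78.7 and 111 CPM in D5000 and 38.3, 62.9 and 219 CPM in D10000. D5000 replicates 6 (28.8 CPM) and 25 (102 CPM) differed widely within 1 diet. NRIP1 (ENSSSCG00000021038), a hormone-dependent corepressor that in mice restrains oxidative genes in muscle, ran 4.05, 8.23 and 19.7 CPM in control, 7.66, 9.82 and 41.4 CPM in D5000 and 2.29, 9.22 and 60.2 CPM in D10000. The highest NRIP1 levels, at 60.2, 53.2 and 41.4 CPM, were in D10000 replicates 7 and 2 and in D5000 replicate 18. In the control, replicate 23 had the highest CPM for every coregulator except NCOA1, and it had the lowest share of assigned reads among controls (45.1%). After TMM scaling replicate 17 was the highest control for NCOA3 (log2 CPM 2.17 against 1.81 in replicate 23). For NRIP1 it was replicate 10 (4.07 against 3.90). In bulk tissue, fewer cells of a type and less RNA per cell cannot be told apart.

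The first question was whether pigs on 5000 IU/kg differed from control pigs in these genes. With edgeR's quasi-likelihood test and Benjamini-Hochberg adjustment over all genes, 0 of 7 passed an adjusted p of 0.05, beside 0% of the 10992 genes tested. At an unadjusted p under 0.05 there were also 0 of 7, beside 3.38% of all genes (371 genes; 510 with DESeq2 and 401 with voom, the other count tests run). Fold changes were above 0 for 5 of 7, beside 51% of all genes, with a median log2 fold change of 0.40 against 0.01 over all genes. SMARCA4 averaged 94.8 ± 58.5 CPM in D5000 and 66.0 ± 22.9 CPM in control (SD, n = 8 each), a log2 fold change of 0.43 ± 0.25 (SE; 95% interval -0.08 to 0.94; edgeR adjusted p = 0.999), which was 0.31 ± 0.24 without the 3 libraries under 40% assigned and 0.22 without D5000 replicate 6. NCOA2 averaged 27.3 ± 31.8 CPM in D5000 and 18.1 ± 10.8 CPM in control, a log2 fold change of 0.40 ± 0.40 (95% interval -0.41 to 1.21). The NCOA2 difference turned to -0.06 without D5000 replicate 18 alone. NCOA3 stood at 0.73 ± 0.62 (95% interval -0.54 to 2.00) and NRIP1 at 0.45 ± 0.44 (95% interval -0.45 to 1.35). NCOA3 was at 0.46, and NRIP1 at 0.24, without D5000 replicate 18. MED1 stood at 0.18 ± 0.24 (95% interval -0.32 to 0.67) and NCOR1 at -0.02 ± 0.31 (95% interval -0.64 to 0.60). NCOA1 was the other gene with a value below 0, at -0.25 ± 0.27 (95% interval -0.80 to 0.31), from 32.5 ± 17.8 CPM in D5000 and 34.5 ± 11.6 CPM in control.

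Pigs on 10000 IU/kg were set against the same control pigs. Again 0 of 7 passed an adjusted p of 0.05 with edgeR, beside 0% of all genes, and 0 of 7 had an unadjusted p under 0.05, beside 2.39% (263 genes; 339 with DESeq2 and 217 with voom). Fold changes were above 0 for 6 of 7, beside 57.2% of all genes, with a median log2 fold change of 0.17 against 0.07 over all genes. NRIP1 averaged 20.7 ± 21.8 CPM in D10000 (SD, n = 9) and 9.83 ± 5.42 CPM in control (SD, n = 8), a log2 fold change of 0.74 ± 0.43 (SE; 95% interval -0.14 to 1.62; edgeR adjusted p = 1.00). The medians of NRIP1 were much closer, at 9.22 CPM in D10000 and 8.23 CPM in control, and the log2 fold change was 0.45 without D10000 replicate 7 and 0.02 ± 0.38 without the 3 libraries under 40% assigned. NCOA3 stood at 0.59 ± 0.61 (95% interval -0.65 to 1.83), and leaving out D10000 replicate 2 brought it to -0.04. NCOA2 stood at 0.40 ± 0.39 (95% interval -0.39 to 1.19), at 0.12 without D10000 replicate 7, and at -0.25 ± 0.28 without the 3 libraries. The remaining genes were close to 0: NCOR1 at 0.17 ± 0.30 (95% interval -0.44 to 0.77), MED1 at 0.13 ± 0.24 (95% interval -0.35 to 0.61), SMARCA4 at 0.01 ± 0.24 (95% interval -0.48 to 0.51) and NCOA1 at -0.05 ± 0.26 (95% interval -0.59 to 0.49). Without the 3 libraries NCOR1 was at -0.11, MED1 at -0.03 and SMARCA4 at -0.09. These comparisons share the control libraries. In simulated counts for this comparison edgeR called 4 of 100 genes with a 2-fold change. Therefore 0 calls do not show that a difference of that size was absent.

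Between the doses, 0 of 7 coregulators passed an adjusted p of 0.05 for 10000 against 5000 IU/kg, beside 0% of all genes, and 0 of 7 had an unadjusted p under 0.05, beside 2.94% (323 genes; 393 with DESeq2 and 312 with voom). SMARCA4 had the smallest p, at 77.0 ± 33.7 CPM in D10000 (SD, n = 9) and 94.8 ± 58.5 CPM in D5000 (SD, n = 8), a log2 fold change of -0.41 ± 0.24 (SE; 95% interval -0.91 to 0.08; edgeR adjusted p = 0.999). That difference was -0.20 without D5000 replicate 6. The other 6 lay between -0.14 (NCOA3) and 0.29 (NRIP1), and 4 of the 7 were above 0, beside 54.6% of all genes. A joint test of both doses called 0 of 7, beside 0% of all genes, and none had an unadjusted p under 0.05, beside 2.66%. The smallest joint p was that of SMARCA4, at an unadjusted p of 0.156 in edgeR.

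**Figure D2:**
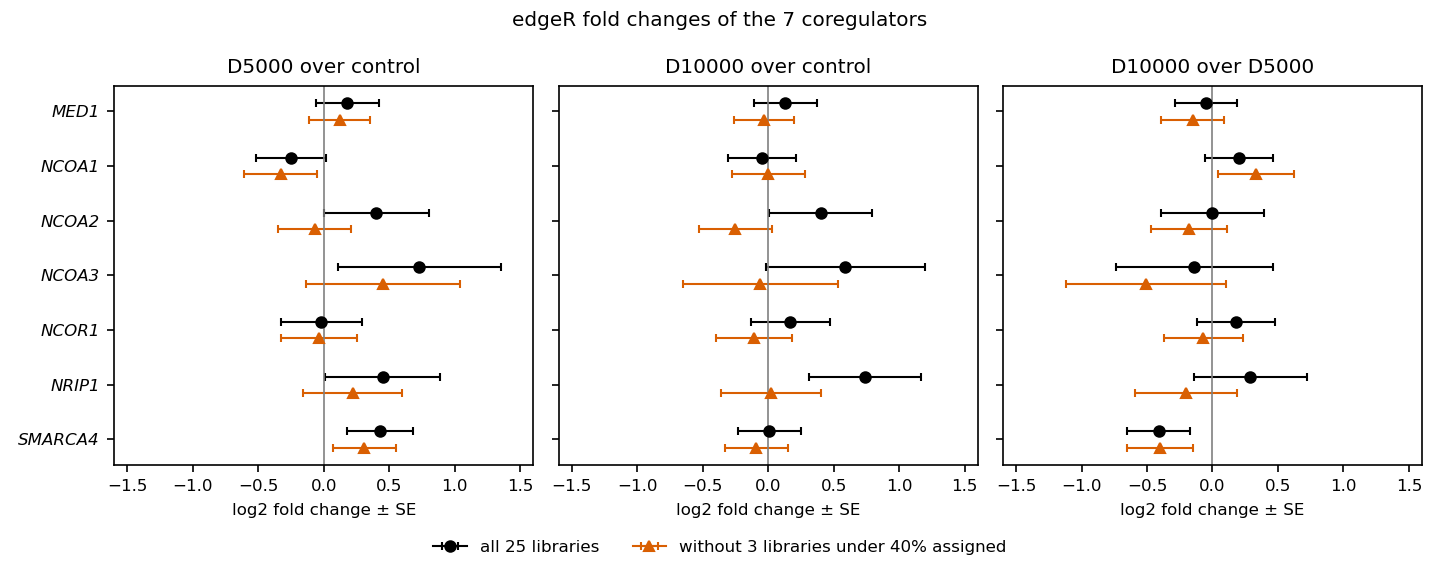
Log2 fold changes of the 7 coregulators with their SE in the 3 comparisons of diets, from all 25 libraries (black circles) and without the 3 libraries under 40% of reads assigned (orange triangles). NRIP1 in D10000 over control is at 0.74 with all libraries and at 0.02 without the 3.

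The balance of coactivator and corepressor transcripts also overlapped between diets. The summed CPM of NCOA1, NCOA2, NCOA3 and MED1 over that of NCOR1 and NRIP1 had a lowest, median and highest value of 1.63, 2.06 and 3.37 in control libraries, 0.867, 2.63 and 3.51 in D5000 libraries and 1.48, 2.33 and 2.85 in D10000 libraries. The lowest ratio, in D5000 replicate 25, came with the lowest coactivator sum of all libraries (96.9 CPM) and an NCOR1 level of 102 CPM. D10000 replicate 7 had more NCOR1, at 219 CPM, and a ratio of 1.48. No test was made on this sum. The partners of the vitamin D pathway at the receptor level were unequal: RXRA, the retinoid X receptor that pairs with the vitamin D receptor, stood at 154 ± 44.5 CPM in control, 160 ± 35.1 in D5000 and 175 ± 34.5 in D10000 (SD, n = 8, 8 and 9). The receptor gene VDR had 0 to 8 counts per library in control, 0 to 8 in D5000 and 0 to 42 in D10000, and did not pass the filter. By its 3.27 CPM, the library with 42 counts was D10000 replicate 27, which also had the highest adipocyte marker sum. A count of 0 allows up to 3 counts, which is 0.198 to 0.906 CPM over the sizes of these libraries, for counting error only.

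The wider coregulator machinery likewise held 0 genes past the adjusted threshold in any comparison. Of the other coactivators and coactivator-bound enzymes, 15 of 18 listed genes were tested, with 9 above 0 and 6 below at 5000 IU/kg against control (median 0.17) and the same counts at 10000 IU/kg (median 0.07). Of the other Mediator subunits, 27 of 31 were tested, with 11 above 0 and 16 below at 5000 IU/kg (median -0.17) and 12 above and 15 below at 10000 IU/kg (median -0.03). Of the other corepressors and their complexes, 14 of 20 were tested, with 7 above and 7 below (median -0.03) and 5 above and 9 below (median -0.12). Of the other SWI/SNF subunits, 18 of 21 were tested, with 10 above and 8 below (median 0.16) and 13 above and 5 below (median 0.19). Of 10 nuclear receptors, 8 were tested, with medians of 0.04 and 0.02. So the partners of SMARCA4 and MED1 lay on both sides of 0, as the plot of gene groups shows. Above 0 were 55.6% (5000 IU/kg) and 72.2% (10000 IU/kg) of the other SWI/SNF subunits. For the other Mediator subunits these shares were 40.7% and 44.4%. Over all genes tested they were 51% and 57.2%, with medians of 0.01 and 0.07. The departure of a group from all genes was not tested.

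**Figure D3:**
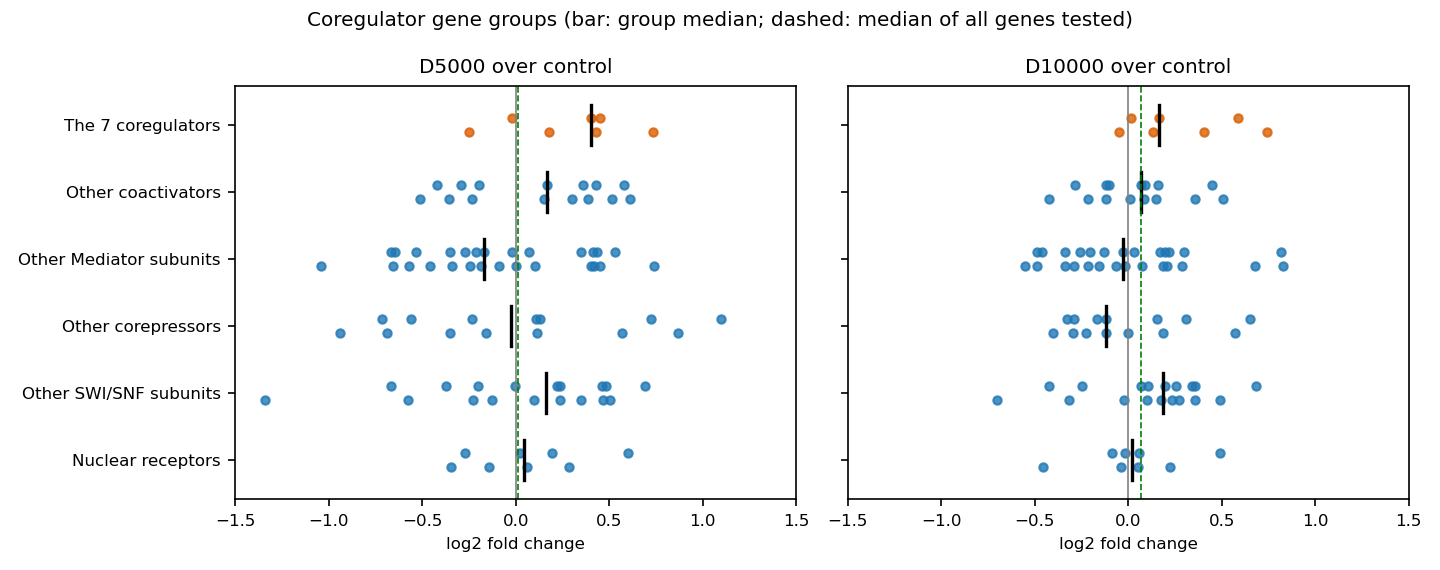
Log2 fold changes of the tested genes of each coregulator group at both doses over control, with a bar at the group median and a dashed line at the median of all genes tested. The medians of the groups lie between -0.17 and 0.40 at 5000 IU/kg.

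The tested genes of these wider groups with the smallest p differed from 1 comparison to the next. At 5000 IU/kg against control they were the corepressor LCORL at 1.10 ± 0.40, the SIN3 scaffold SIN3B at -0.94 ± 0.41, the SWI/SNF actin-like subunit ACTL6A at -1.34 ± 0.60 and the Mediator subunit MED10 at -1.04 ± 0.48, each with an edgeR adjusted p of 0.999. At 10000 IU/kg against control they were the SWI/SNF subunit ARID1A at 0.68 ± 0.33, the Mediator kinase-module subunits MED13 at 0.82 ± 0.43 and MED13L at 0.83 ± 0.46, and MED16 at -0.55 ± 0.32, each with an edgeR adjusted p of 1.00. Between 10000 and 5000 IU/kg they were the SWI/SNF core subunit SMARCB1 at 0.84 ± 0.37, the Mediator tail subunit MED15 at 0.56 ± 0.26, SIN3B at 0.77 ± 0.40 and the coactivator RBM14 at -0.64 ± 0.34. RXRA stood at 0.02 ± 0.23 at 5000 IU/kg and 0.05 ± 0.22 at 10000 IU/kg, both against control.

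Across libraries, most of the coregulators varied with the share of reads assigned to genes, a measure of the library rather than of the diet. Values were log2 CPM after TMM scaling (edgeR's correction for library composition), and both measures were centred within diets (n = 25, permutation test within diets, 7 relations, p adjusted over all 10992 genes). NCOA2 had the closest relation, with r = -0.81 (permutation p = 4e-05, adjusted p = 0.000758; rho = -0.74, adjusted p = 0.0012). It was negative in each diet, at r = -0.92 in control, -0.90 in D5000 and -0.75 in D10000. NRIP1 followed with r = -0.70 (permutation p = 0.00024, adjusted p = 0.00251; rho = -0.59), with r of -0.45 in control, -0.66 in D5000 and -0.86 in D10000. Both relations still passed without the 2 libraries farthest from the median share, D5000 replicate 18 and D10000 replicate 2 (NCOA2 r = -0.66, adjusted p = 0.0139; NRIP1 r = -0.61, adjusted p = 0.0359; permutation tests).

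NCOA3 (r = -0.62, permutation p = 0.00253, adjusted p = 0.0132; rho = -0.48), SMARCA4 (r = -0.58, p = 0.00595, adjusted p = 0.0246; rho = -0.54) and MED1 (r = -0.56, p = 0.00893, adjusted p = 0.0328; rho = -0.62) also passed with Pearson's r. By rank correlation 4 of 7 passed, beside 29.9% of all genes, and NCOA3 did not (permutation adjusted p = 0.0702). Without those 2 libraries r was -0.34 for NCOA3, -0.35 for SMARCA4 and -0.53 for MED1, with permutation adjusted p of 0.30, 0.224 and 0.0743, so that these 3 relations no longer passed. For MED1 r was about as large without the 2 libraries as with them, and its rank correlation over all libraries passed (permutation adjusted p = 0.0133). The 2 calls that then remained were both negative, beside 9.76% of all genes with a negative call. NCOR1 had r = -0.39 (permutation p = 0.0841, adjusted p = 0.175; rho = -0.44) and NCOA1 r = -0.05 (permutation p = 0.842, adjusted p = 0.896; rho = 0.06). The 5 of 7 that passed were all negative, beside 14.1% of all genes with a negative relation that passed and 31.6% that passed in either direction. The median r over all genes was 0.12. Scaled by total gene counts instead of TMM, NCOA1 had r = -0.46 and the median over all genes turned to -0.18, so the sign for a typical gene depended on the scaling while the other 6 coregulators stayed negative.

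**Figure D4:**
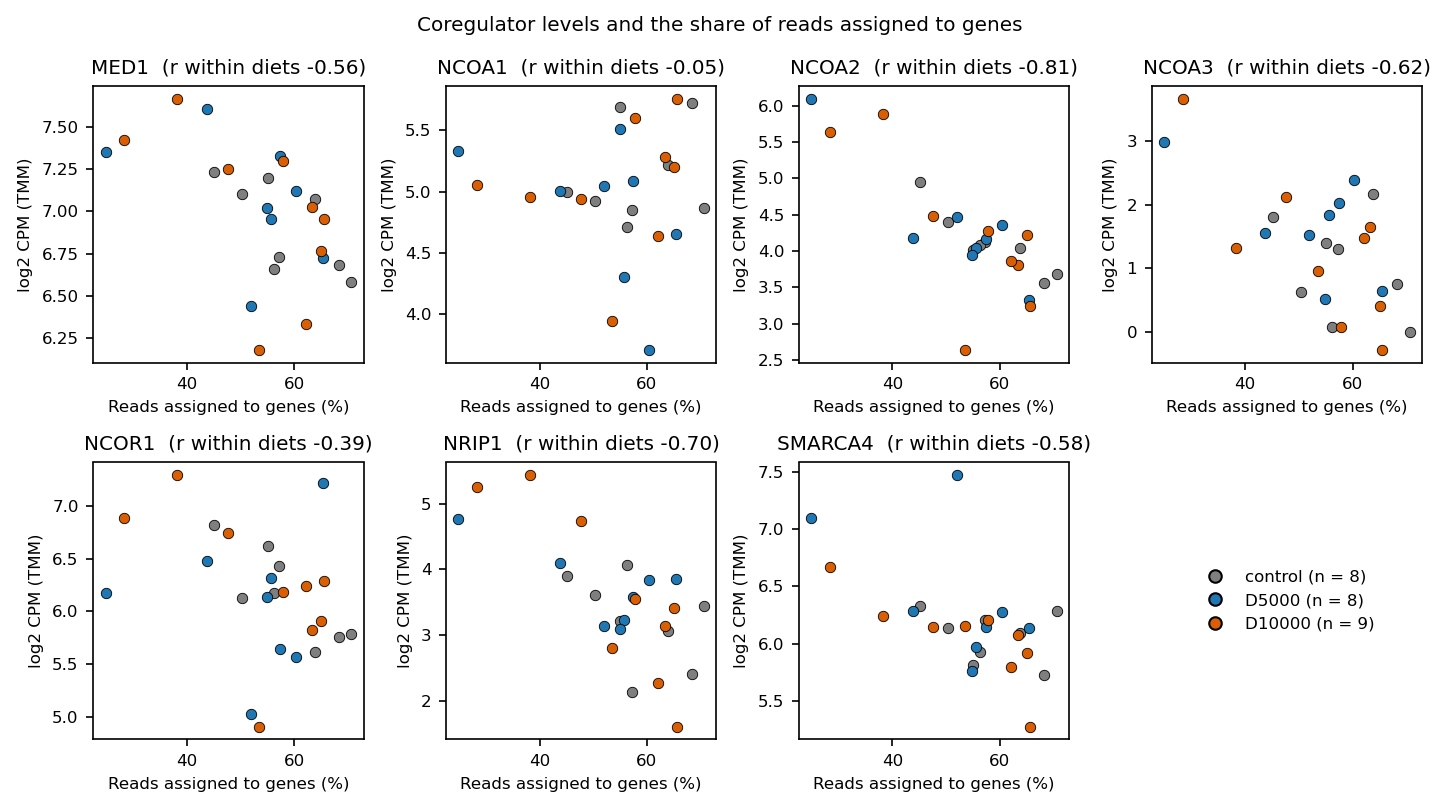
Log2 CPM (TMM) of each coregulator against the percent of reads assigned to genes, with 1 point per library coloured by diet. NCOA2 (r = -0.81 within diets) and NRIP1 (r = -0.70) are higher where fewer reads were assigned, and NCOA1 (r = -0.05) is not.

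The coregulators also varied together, with NCOA1 apart from the others after TMM scaling. Of 21 pairs, 17 had a positive r within diets, the median r was 0.44 and 6 reached 0.5, beside 5.28% of all pairs of tested genes and a median of 0.0025 over those pairs. The highest were NCOA2 with NRIP1 (r = 0.75, permutation p = 0.00015, adjusted p = 0.00315 over the 21 pairs; rho = 0.64), NCOA2 with MED1 (r = 0.66, p = 0.00225, adjusted p = 0.0236; rho = 0.61) and MED1 with NRIP1 (r = 0.62, p = 0.00387, adjusted p = 0.0244; rho = 0.62). These 3 pairs kept r of 0.66, 0.60 and 0.55 without the 2 libraries farthest from the median of the first gene. In all 8 of 21 pairs passed, with r of 0.483 or more, which 5.94% of all pairs of tested genes reached. Without the 2 libraries farthest from the median of the first gene, 5 passed, with r of 0.546 or more, which 2.95% of all ordered pairs of tested genes reached. On CPM from total gene counts 17 passed, with r of 0.448 or more, but there 12.3% of all pairs reached that r and the median over all pairs was 0.09. NCOA2 with NRIP1 had r = 0.50 in control, 0.63 in D5000 and 0.87 in D10000. After TMM scaling NCOA1 had r of -0.15 to 0.36 with the other 6, and 0 of its pairs passed. This depended on the scaling. On CPM from total gene counts its r ran from 0.29 to 0.69. Its pairs with MED1 (0.69), NCOA2 (0.55) and NCOR1 (0.49) were there among those that passed. NCOR1 and SMARCA4, close in level, had r = -0.13 after TMM scaling and 0.39 on CPM from total gene counts. With TMM scaling and the share of assigned reads taken out of both genes, the median r of the 21 pairs was 0.20. NCOA2 with NRIP1 was then at 0.43.

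**Figure D5:**
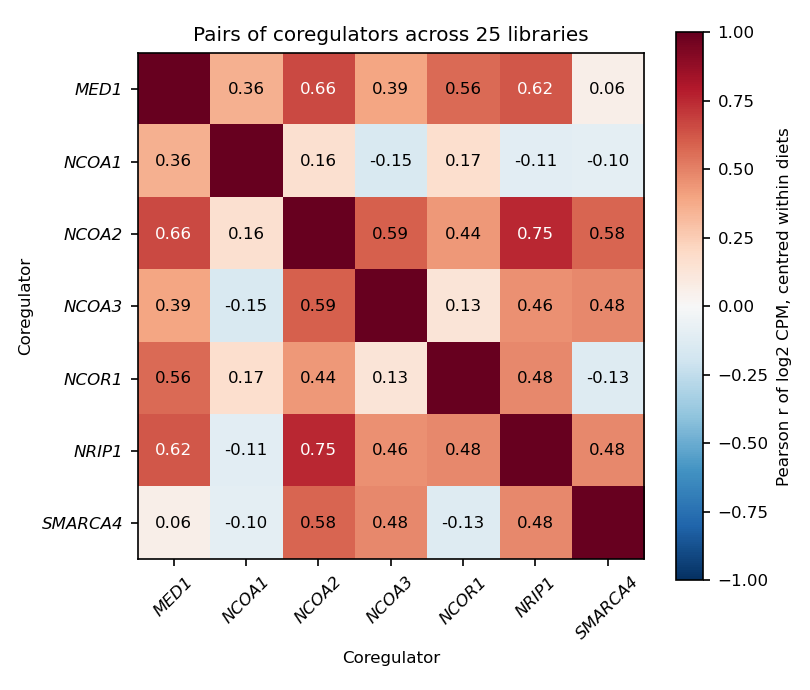
Pearson r of log2 CPM (TMM), centred within diets, for the 21 pairs of coregulators over 25 libraries. NCOA2, NRIP1 and MED1 form the highest values (0.62 to 0.75), and the row of NCOA1 runs from -0.15 to 0.36.

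The genes whose levels followed each coregulator most closely, by Spearman's rho within diets over 25 libraries, differed among them. NCOA1 was followed by the Golgi protein YIPF4 (rho = 0.75), the deubiquitinase OTUD3 (0.72) and the mitochondrial transcription factor TFAM (0.70). NCOA2 was followed by CP, the plasma ferroxidase ceruloplasmin made mainly by liver (0.90), the ubiquitin ligase MYCBP2 (0.90) and the adrenergic receptor ADRA1A (0.89). NRIP1 was followed by the nuclear receptor RORA (0.88), ZCCHC24 (0.83) and the histone demethylase KDM5A (0.82). MED1 was followed by the sialyltransferase ST6GAL1 (0.86), VPS13B (0.86) and AKR1D1, an enzyme of bile acid synthesis (0.85). NCOR1 was followed by the hepatocyte transcription factor FOXA3 (0.82), the ceramide transporter CERT1 (0.81) and the translation factor EIF3J (0.80). SMARCA4 was followed by the asparaginyl-tRNA synthetase NARS1 (0.81), ARHGAP30 (0.76) and WASHC4 (0.74), and NCOA3, at its low counts, by PM20D2 (0.69), the glutathione transferase MGST2 (0.68) and SH3D19 (0.68). These correlations are a description, since the genes were picked as the highest among all those tested and share library and depth.

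CP, AKR1D1 and FOXA3, found beside NCOA2, MED1 and NCOR1, are liver genes by background knowledge, and the coregulators were then set against the summed liver markers. Since this relation was chosen after those genes were seen, its values are a description, with no test. Within diets over 25 libraries, r was 0.78 for NCOA2 (rho = 0.70), 0.71 for MED1 (rho = 0.70) and 0.64 for NCOR1 (rho = 0.69). It was 0.55 for NRIP1 (rho = 0.53), 0.45 for NCOA3 (rho = 0.42), 0.21 for NCOA1 (rho = 0.05) and 0.19 for SMARCA4 (rho = 0.25), beside a median of -0.09 over all genes. Without the 2 libraries farthest from the median of the liver sum, D10000 replicates 7 and 27, r was 0.66 for NCOA2, 0.56 for MED1 and 0.44 for NCOR1. The liver sum itself was higher where fewer reads were assigned (r = -0.72, rho = -0.82), which is likewise a description. In the 3 libraries under 40% assigned it was 29249 to 35586 CPM. The part of liver transcripts and of the assigned share in the coregulator levels was not tested.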

How the data were processed

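The deposited values were raw, unnormalized counts of reads per Ensembl pig gene, 1 file per pig. Per the labels, RNA came from the Total RNA Mini kit (A&A Biotechnology) and libraries followed the QuantSeq FWD protocol. FastQC is named in the submitters' processing notes. The aligner, counter, genome build and annotation are not given in the sources used here, and no coordinates or sequences are used. The 5 summary lines of each file stayed out of library sizes. Reads outside genes took 16.3% to 38.1% of a file, multiply aligned reads 12.5% to 38.7% and ambiguous reads 0.299% to 0.608%. The spike-in lines held 0 or 1 read per file and were left out. Of 25880 gene identifiers 1 was missing from a file, and 14856 of the 25879 analysed had a symbol. No libraries of a diet were alike within sampling noise (smallest chi-square per gene 57.8 for genes with a total of at least 20 counts).

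Counts were filtered with filterByExpr (minimum count 10, minimum total 15), scaled by TMM and fitted over all 25 libraries with diet as the only term, using glmQLFit (robust) and glmQLFTest of edgeR 4.0.16 in R 4.3.3. P-values were adjusted by Benjamini-Hochberg over all 10992 genes, with a threshold of 0.05. CPM in the text uses total gene counts, and log2 CPM uses TMM and a prior count of 2. Correlations were tested with 100000 permutations within diets, two-sided, in numpy 2.4.6. Those with the assigned share were adjusted over all genes, in place of the 7 coregulators as first planned. Alternatives were RLE scaling, no filter, DESeq2 1.42.0, voom of limma 3.58.1, the assigned share as a covariate, leaving out the libraries under 40% assigned (also with D10000 replicate 27, added after seeing the data) and leaving out each library. The scripts were tested on simulated data. In simulated counts for D10000 against control, edgeR called 4 of 100 genes with a 2-fold change and 68 of 100 with a 4-fold change. It called 1 of 10792 unchanged genes.

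The named genes were the 7 coregulators, VDR and RXRA, the 4 tested genes of the wider groups with the smallest p in a comparison, and the 3 genes most alike each coregulator. Members, lists and tests were chosen with earlier results of these data known. The labels mention no molecular identifiers, and p-values measure the spread between pigs.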

Additional observations from a re-analysis of the deposited data

Results flagged for a closer look

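In 21 sets of values (7 coregulators in 3 diets), 4 highest values stood farther from the nearest other library than Dixon's 95% criterion allows. Chance gives about 1 in 20 sets where values are normal and sets are independent. These values were CPM without TMM scaling or logs, and the sets share libraries, so that rate need not hold here. NCOA2 was at 105 CPM in D5000 replicate 18, where the next library of that diet was at 21.6 CPM. NCOA3 was at 17.5 CPM in D10000 replicate 2 (next 4.42 CPM) and at 11.8 CPM in D5000 replicate 18 (next 3.90 CPM). NRIP1 was at 41.4 CPM in D5000 replicate 18 (next 20.4 CPM). These libraries had the lowest shares of reads assigned to genes, 24.9% in D5000 replicate 18 and 28.4% in D10000 replicate 2, and liver marker sums of 31060 and 29249 CPM. The part of either measure in these values was not tested.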

How the results depend on the processing

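The 21 fold changes of the coregulators were refitted in 7 other settings and in 25 fits that each left out 1 library, which gave 672 values. None passed an adjusted p of 0.05. The smallest was 0.686 (edgeR, NRIP1 at 10000 IU/kg against control with no filter on low counts, at a log2 fold change of 0.73). Without D10000 replicate 30 that NRIP1 fold change was 0.89, with an unadjusted p of 0.04 and an edgeR adjusted p of 0.999. No gene of the whole table passed in any of these fits. The sign turned in 56 of the 672, and the cause was not tested. Below, log2 fold changes are given. Without the libraries under 40% assigned, NCOA2 was -0.07 for D5000 against control, and for D10000 against control NCOA1 was 0.00, NCOA2 -0.25, NCOA3 -0.06, MED1 -0.03, NCOR1 -0.11 and SMARCA4 -0.09, while for D10000 against D5000 NCOA2 was -0.18, NCOR1 -0.07 and NRIP1 -0.20. Without D10000 replicate 27 as well, NCOA2 was -0.05 for D5000 against control, NCOA1 0.13, NCOA2 -0.12, NCOA3 -0.04 and SMARCA4 -0.13 for D10000 against control, and NCOA2 -0.06 and NRIP1 -0.14 for D10000 against D5000. With the assigned share as a covariate, NCOA2 was -0.13 at 5000 IU/kg and -0.04 at 10000 IU/kg, and SMARCA4 -0.11 at 10000 IU/kg, all against control. With voom, SMARCA4 was -0.01 for D10000 against control, and NCOA2 -0.18 and NRIP1 -0.32 for D10000 against D5000. Some values moved without a turn of sign. For D10000 against control voom gave NRIP1 0.18, NCOA3 0.06 and NCOA2 0.01, where the main fit gave 0.74, 0.59 and 0.40. The covariate gave NRIP1 0.16 and NCOA3 0.01 there. For D5000 against control NRIP1 was 0.50 with voom and 0.45 in the main fit. For D10000 against D5000 NCOA2 turned sign at 0.00 with RLE scaling and with DESeq2, where the main fit was also at 0.00.

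Leaving out each library turned 31 of 525 signs. For D5000 against control NCOA2 ran from -0.06 to 0.57 and NCOR1 from -0.25 to 0.10. For D10000 against control NCOA1 ran from -0.15 to 0.06, NCOA3 from -0.04 to 0.82 and SMARCA4 from -0.05 to 0.09, while NCOA2 (0.12 to 0.58), MED1 (0.05 to 0.23) and NCOR1 (0.02 to 0.29) kept their sign. For D10000 against D5000 MED1 ran from -0.13 to 0.04, NCOA2 from -0.30 to 0.48, NCOA3 from -0.78 to 0.15 and NRIP1 from -0.02 to 0.51, while NCOR1 (0.03 to 0.41) kept its sign.

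Without the 2 libraries farthest from the median share, 2 of 7 relations to the assigned share passed, beside 17.6% of all genes, and r of NCOA1 was 0.11. Of the 21 pairs, 17 passed with CPM on total gene counts and 5 without the 2 farthest libraries, against 8, where 12.3%, 2.95% and 5.94% of all gene pairs reached the lowest r of those that passed. No paired analysis was possible because the labels do not name the litters and give no number shared between diets. Depth limits NCOA3, at 4 to 58 counts per library, more than the others, and VDR was below the filter.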
